A study of Mus musculus with 9 samples.

Results

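The Schlafen genes are a family that lies in a single cluster on mouse chromosome 11. The genes described here are the 7 rows of the expression table whose symbol is Slfn1, Slfn2, Slfn3, Slfn4, Slfn5, Slfn8 or Slfn9, chosen by name, out of 24060 genes in the table. All 7 had a maximum above 1 in TPM and were therefore among the 11330 genes tested. TPM, the unit of the table, is a share of all transcripts in a library, corrected for gene length. A few further rows carry a symbol beginning with Slfn and are named where they bear on the family. The libraries were made from spleen CD8 T cells of 3 transnuclear mouse lines, R7-I, R7-II and R7-III, with 3 biological replicates each and 9 libraries in all. Each line was cloned by nuclear transfer from 1 T cell, so a line stands for 1 T cell receptor and the 3 lines differ in that receptor. All 3 lines were kept on a BALB/c background with intact Rag2, and so can make T cells with other receptors. All 3 receptors recognise the ROP7 peptide of Toxoplasma gondii on H-2Ld. The series text ranks their affinity for the peptide as R7-I > R7-III > R7-II and their self-reactivity as R7-III > R7-I > R7-II. Cells of every group were cultured overnight in 10 ng/ml IL-2 with the ROP7 peptide at 10 μM, and then sorted as CD3+ CD8+ H-2Ld-Rop7+ cells. No unstimulated library was analysed here, so levels describe activated cells of each line and not a response to the peptide. The labels do not say which animals the replicates came from, and p-values measure only the spread between these libraries. The ages of the mice are not given in the sources used here.

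Schlafen proteins share an N-terminal Schlafen core. Slfn1 and Slfn2 belong to a short group, Slfn3 and Slfn4 to an intermediate group, and Slfn5, Slfn8 and Slfn9 to a long group with a helicase-like domain. The family was first described in developing and activated lymphocytes. Slfn2 is needed to keep resting T cells quiescent, as the elektra mutation of the gene showed, and it shields tRNAs from cleavage in activated T cells. Slfn1 slows the growth of T cells when it is overexpressed. Several members are induced by type I interferon, and Slfn4 is best known from myeloid cells.

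The 7 members occupy a span of 264 kb, chr11:82951349-83215154 on GRCm38, the build also called mm10. From the low end of the coordinates the order is Slfn5, Slfn9, Slfn8, the pseudogene Slfn10-ps, Slfn2, Slfn1, Slfn4 and Slfn3. Slfn8, Slfn9 and Slfn10-ps lie on the minus strand and the others on the plus strand. The bases before the start sites of 5 members are shown for 2 reasons. The short members Slfn1 and Slfn2 differed from each other in how they varied between clones. Slfn5 and Slfn8, but not Slfn9, spread widely among the R7-II libraries. The sequences are RefSeq's for GRCm38.p6, in which all 7 members had an entry, and each covers the 250 bases up to the start site, 5′ to 3′ on the strand of the gene. Slfn1 is chr11:83116570-83116819 (plus strand), Slfn2 is chr11:83064862-83065111 (plus), Slfn5 is chr11:82951852-82952101 (plus, ahead of a start site that lies inside the annotated span of the gene), Slfn8 is chr11:83020811-83021060 (minus) and Slfn9 is chr11:82991831-82992080 (minus). Capitals mark matches to the motifs searched.
Slfn1: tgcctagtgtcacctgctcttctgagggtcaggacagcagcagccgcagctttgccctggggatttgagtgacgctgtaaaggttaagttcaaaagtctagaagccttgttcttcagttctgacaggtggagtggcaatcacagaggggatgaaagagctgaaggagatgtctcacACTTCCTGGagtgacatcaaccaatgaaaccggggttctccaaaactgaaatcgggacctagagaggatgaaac
Slfn2: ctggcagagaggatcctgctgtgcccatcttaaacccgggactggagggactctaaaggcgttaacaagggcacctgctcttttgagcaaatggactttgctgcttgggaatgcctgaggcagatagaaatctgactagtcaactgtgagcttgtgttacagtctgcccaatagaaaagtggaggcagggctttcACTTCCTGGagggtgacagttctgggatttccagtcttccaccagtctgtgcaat
Slfn5: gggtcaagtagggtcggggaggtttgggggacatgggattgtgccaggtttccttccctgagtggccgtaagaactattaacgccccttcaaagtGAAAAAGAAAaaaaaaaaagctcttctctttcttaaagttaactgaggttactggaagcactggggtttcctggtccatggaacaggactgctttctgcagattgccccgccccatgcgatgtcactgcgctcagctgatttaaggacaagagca
Slfn8: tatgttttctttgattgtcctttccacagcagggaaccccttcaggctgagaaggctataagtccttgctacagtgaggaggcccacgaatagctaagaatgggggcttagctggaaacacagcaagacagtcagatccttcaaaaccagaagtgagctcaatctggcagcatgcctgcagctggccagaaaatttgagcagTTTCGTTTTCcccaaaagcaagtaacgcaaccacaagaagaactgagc
Slfn9: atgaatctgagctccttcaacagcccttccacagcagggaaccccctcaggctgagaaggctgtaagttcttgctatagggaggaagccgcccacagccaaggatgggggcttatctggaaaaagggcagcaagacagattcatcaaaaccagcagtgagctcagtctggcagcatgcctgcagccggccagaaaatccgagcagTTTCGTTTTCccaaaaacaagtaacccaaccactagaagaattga
The motifs were searched on both strands in windows of 300 bases, from 250 before to 50 after each start site. The capitals in Slfn1 and Slfn2 are ACTTCCTGG, a run that holds on its other strand the GGAA core bound by ETS factors. This run was found by reading the members and was also present in Slfn3 and Slfn4, so that all 4 short and intermediate members held it. Among 32817 promoter windows, 0.844% held the same run. The capitals in Slfn5, Slfn8 and Slfn9 match the interferon-stimulated response element (ISRE), searched as a pair of GAAA blocks with any 2 bases between them, and are read on the opposite strand in Slfn8 and Slfn9. No short or intermediate member matched the ISRE, which 3.43% of all windows held. No member window matched TTCNNNGAA, the gamma-activated site, or GTAAACA, the element bound by FOXO factors; 8.29% and 3.65% of all windows did. The Slfn8 and Slfn9 windows were identical at 248 of 300 bases (82.7%). A match describes letters in the window and does not show that a factor binds there.

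Slfn2 was by far the most abundant member in every library. It ranked between 211 and 251 among all genes of its library by TPM and stood at the 98.0th percentile of the genes tested by its mean. Slfn1 was second in every library, with ranks between 1338 and 5689 over the 9 libraries. Slfn3 and Slfn8 had mean levels near the middle of the genes tested, at the 44.5th and 45.4th percentile. Slfn5, Slfn4 and Slfn9 were low, at the 26.2nd, 17.1st and 16.1st percentile. In R7-I and R7-III the levels of Slfn1, Slfn3 and Slfn8 lay within a range of 16.42 to 25.93 TPM, and the libraries of Slfn4 and Slfn9 overlapped within each of these clones. Slfn14 was listed at 0 in 6 libraries and reached at most 0.12 TPM, Slfnl1 was above 0 in 1 library at 0.16 TPM, and Slfn5os was listed at 0 throughout; none of these was tested. Slfn5os is antisense to Slfn5 and overlaps it, and without strand the reads of the overlap cannot be told apart.

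**Figure D1:**
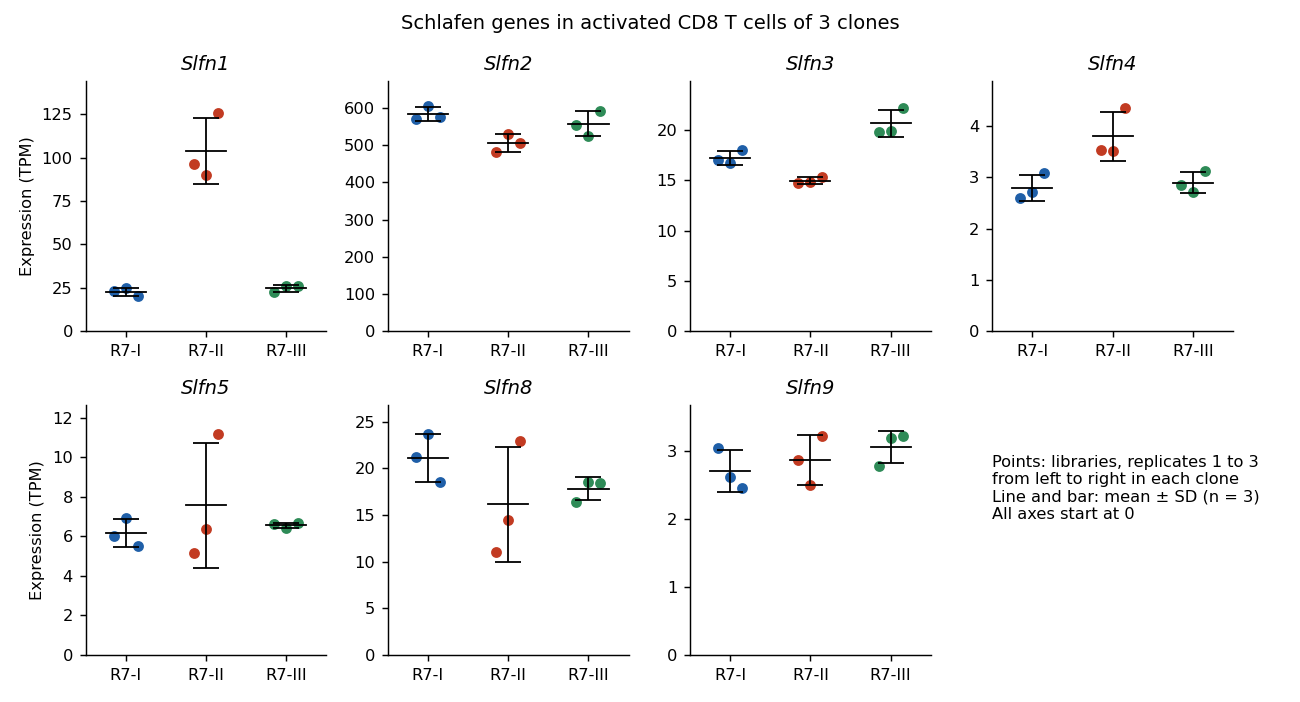
TPM (vertical axes, each starting at 0) of the 7 Schlafen genes in the 3 libraries of each clone, with replicates 1 to 3 from left to right and the mean and SD as line and bar. Slfn1 of R7-II lies between 90.15 and 125.71 TPM and that of the other 6 libraries between 20.17 and 25.93 TPM, and Slfn5 and Slfn8 spread widely within R7-II.

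Slfn1 was the member that set R7-II apart. Its level was 96.33, 90.15 and 125.71 TPM in R7-II replicates 1 to 3, against 23.21, 24.9 and 20.17 TPM in R7-I and 22.49, 25.93 and 25.9 TPM in R7-III. The lowest R7-II library was 3.48 times the highest of the other 6, and R7-I and R7-III overlapped. The mean of R7-II was 104 ± 19.0 TPM (SD, n = 3), which was 4.57 times that of R7-I (22.8 ± 2.40) and 4.20 times that of R7-III (24.8 ± 1.98). On the log2(TPM + 1) scale the differences were 2.13 (SE 0.117, adjusted p = 1.63e-07, limma) and 2.02 (SE 0.117, adjusted p = 2.48e-07, limma). A fold on this scale slightly understates the change of a low gene. It ranked 70 from the top of all log2 differences between R7-II and R7-I, which placed it at the 99.4th percentile, and it stood at the 99.3rd against R7-III. Between R7-III and R7-I its difference was 0.12, with a 95% interval of -0.14 to 0.38 (adjusted p = 0.524, limma).

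The comparisons of R7-II share its libraries and had a large background of changed genes. At an adjusted p under 0.01, 56.1% of the genes tested were called between R7-II and R7-I (40.6% higher and 15.5% lower in R7-II), and 53.6% between R7-II and R7-III (35.6% higher and 18.0% lower). Of the 7 members, 2 were called in each: Slfn1 higher and Slfn2 lower against R7-I, and Slfn1 higher and Slfn3 lower against R7-III. These are smaller shares than the background, so the count itself does not set the family apart. With a change of more than 2-fold asked for as well, 7.25% and 7.58% of genes were called, and Slfn1 was the single member among them in both (5.98% and 4.77% of genes in its direction). At an adjusted p under 0.01 in both comparisons, 45.0% of genes and 1 member, again Slfn1, were called. In R7-III against R7-I, 8.41% of genes and 0 of the 7 members passed in limma; at an unadjusted p under 0.05 the count was 1, Slfn3. Pairs of clones did not overlap in 4 members for R7-II and R7-I, 3 for R7-II and R7-III and 1 for R7-III and R7-I, beside 71.2%, 70.6% and 41.9% of all genes. The median of all genes was 0.17 above R7-I and 0.12 above R7-III in R7-II, on the log2 scale, so small differences are also given relative to it. With median-of-ratios scaling of the libraries, 26.0% of genes were called higher and 28.5% lower against R7-I, and 25.6% and 27.8% against R7-III. Under that scaling the members called were Slfn1 higher and Slfn2 and Slfn3 lower, in both comparisons.

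**Figure D2:**
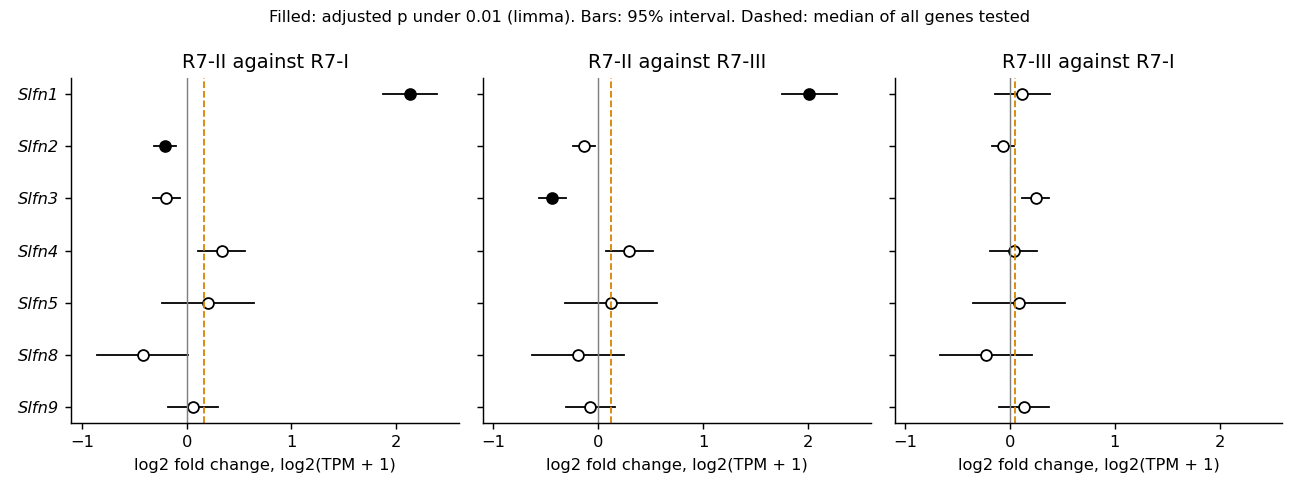
Log2 fold changes of the 7 Schlafen genes on the log2(TPM + 1) scale (horizontal axes) in the 3 comparisons between clones, with 95% intervals from limma; filled points passed an adjusted p of 0.01 and the dashed line is the median of all genes tested. Slfn1 lies at 2.13 and 2.02 in the R7-II comparisons and at 0.12 between R7-III and R7-I, while the other 6 members lie between -0.44 and 0.34.

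Slfn2, the other short member, did not follow Slfn1. It stood at 481.01, 529.55 and 506.05 TPM in R7-II, at 569.62, 604.86 and 574.9 TPM in R7-I and at 553.69, 525.3 and 591.98 TPM in R7-III. Every R7-II library was below every R7-I library, whereas R7-II and R7-III overlapped. The difference from R7-I was -0.21 (SE 0.0473, adjusted p = 0.00276, limma), and the R7-II mean was 0.867 times the R7-I mean. The difference from R7-III was -0.14 (adjusted p = 0.0234, limma) and did not pass 0.01. Relative to the median of all genes the differences were -0.37 and -0.26. The call against R7-I was lost with an adjusted p of 0.0144 when R7-I replicate 2 was left out, of 0.0127 when R7-II replicate 1 was left out and of 0.0768 with quantile normalization, each by limma. R7-III and R7-I differed by -0.07 (adjusted p = 0.366, limma).

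The makeup of the family differed more between clones than its sum. The 7 members together came to 656 ± 22.9 TPM in R7-I, 655 ± 37.5 in R7-II and 633 ± 35.5 in R7-III (SD, n = 3). R7-II was 10.6 TPM above the mean of the other 6 libraries (p = 0.667, exact two-sided permutation test), and the difference was -6.34 TPM without R7-II replicate 3. Without Slfn2 the sums were 72.8 ± 4.90, 149 ± 28.9 and 75.8 ± 4.42 TPM. Slfn2 made up 88.9 ± 0.476% of the family in R7-I, 77.3 ± 3.41% in R7-II and 88.0 ± 0.708% in R7-III. Its share was 11.2 percentage points lower in R7-II than in the other 6 libraries (p = 0.0238, exact two-sided permutation test). This is the smallest p that 3 against 6 libraries allow, and all 3 R7-II libraries lay below all others. The TPM of 59.1% of all genes tested likewise did not overlap between R7-II and the other 6 libraries. Slfn1 made up 3.47 ± 0.284%, 15.9 ± 2.31% and 3.92 ± 0.357% of the family in R7-I, R7-II and R7-III. The shares of a library add up to a whole, so the lower share of Slfn2 and the higher share of Slfn1 are not separate results.

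The ratio of the pair does not depend on the factor by which a library is scaled. Slfn1 was 4.07%, 4.12% and 3.51% of Slfn2 in the R7-I libraries, 20.03%, 17.0% and 24.8% in the R7-II libraries and 4.06%, 4.94% and 4.38% in the R7-III libraries. The clones R7-I and R7-III overlapped, and R7-II lay above both. On the log2 scale the ratio in R7-II exceeded that of the other 6 libraries by 2.29 (p = 0.0238, exact two-sided permutation test). The TPM of 59.1% of all genes tested was as fully separated between these libraries. Most of the 2.29 was in Slfn1 itself, which differed by 2.07 on the log2(TPM + 1) scale. R7-III and R7-I differed by 0.19 (p = 0.3, exact two-sided permutation test; 3 against 3 libraries cannot go below 0.1).

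**Figure D3:**
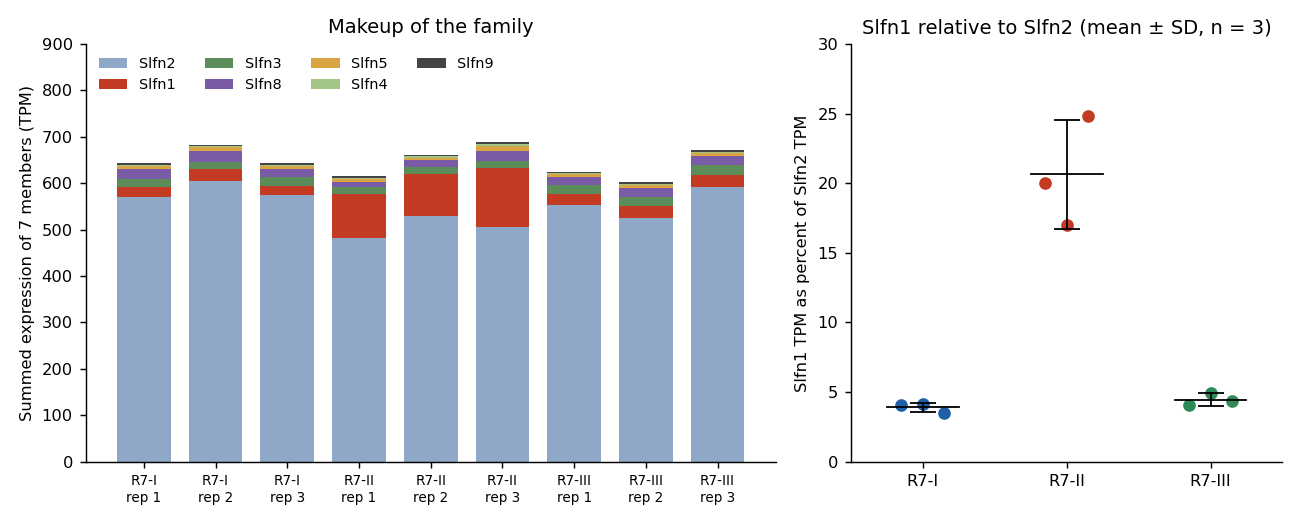
Left, TPM of the 7 Schlafen genes stacked for each of the 9 libraries; right, Slfn1 as a percentage of Slfn2 in each library, with mean and SD (n = 3). The summed height is 602.08 to 688.81 TPM in all clones, and Slfn1 amounts to 17.0% to 24.8% of Slfn2 in R7-II against 3.51% to 4.94% elsewhere.

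The intermediate members Slfn3 and Slfn4 are neighbours on the chromosome, and in R7-II the first was at its lowest and the second at its highest. Slfn3 was at 14.7, 14.81 and 15.35 TPM in R7-II, at 17, 16.72 and 18.01 TPM in R7-I and 19.8, 19.97 and 22.25 TPM in R7-III. The 3 clones did not overlap: every R7-II library was lowest and every R7-III library highest. R7-II differed from R7-III by -0.44 (SE 0.0584, adjusted p = 7.30e-05, limma) and from R7-I by -0.19 (adjusted p = 0.0129, limma), of which the first was called. R7-III exceeded R7-I by 0.25 (adjusted p = 0.0152, limma), short of 0.01. The order of the means, R7-III, R7-I, R7-II, is the order the series text gives for self-reactivity; Slfn3 was the 1 of 7 members with this order and no overlap, beside 5.80% of all genes tested, and 3 clones allow no test of such an order. The difference from R7-I passed 0.01 with median-of-ratios scaling (-0.36, adjusted p = 1.93e-04, limma) and with quantile normalization (-0.46, adjusted p = 5.21e-05, limma).

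Slfn4 was low in every library. It was at 3.53, 3.51 and 4.34 TPM in R7-II, at 2.59, 2.71 and 3.08 TPM in R7-I and 2.84, 2.72 and 3.12 TPM in R7-III, and no R7-II library overlapped the others. The differences were 0.34 from R7-I (SE 0.101, adjusted p = 0.0127, limma) and 0.30 from R7-III (adjusted p = 0.0234, limma), and neither was called; with quantile normalization the first was -0.02. Against all other 6 libraries, R7-II did not overlap them in 3 of the 7 members, Slfn1 and Slfn4 above and Slfn3 below, beside 59.1% of all genes tested (41.7% above and 17.4% below). As a description, Slfn3 was 6.19 ± 0.359 times Slfn4 in R7-I, 3.97 ± 0.379 times in R7-II and 7.15 ± 0.186 times in R7-III. Slfn3 and Slfn4 transcripts were 92.7% identical along the shorter, but shared no stretch of 100 bases, the read length. Summed to 1 feature, they differed by -0.31 between R7-II and R7-III (adjusted p = 9.66e-04, limma) and by -0.09 between R7-II and R7-I (adjusted p = 0.201, limma).

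Markers of other cells were higher in the R7-II libraries, the same libraries in which Slfn1 and Slfn4 were high. The 12 myeloid markers summed to 51.36, 29.48 and 96.95 TPM in R7-II replicates 1 to 3, against 5.77 to 7.19 in R7-I and 6.37 to 8.85 in R7-III. Of these 12, limma called 9 higher in R7-II against R7-I and 10 against R7-III, beside 40.6% and 35.6% of all genes. They were led by Lyz2, the lysozyme of macrophages, at 13.8 to 56.74 TPM in R7-II. The 8 B cell markers summed to 39.9 to 84.96 TPM in R7-II, 10.01 to 18.8 in R7-I and 5.73 to 8.94 in R7-III, and all 8 were called higher in each comparison of R7-II. All 7 MHC class II genes were higher as well, with sums of 112.47 to 183.11 TPM in R7-II, 32.38 to 50.32 in R7-I and 24.29 to 28.13 in R7-III. R7-II replicate 2 had the lowest sum of all 3 lists among the R7-II libraries. Slfn1 at 90.15 TPM and Slfn4 at 3.51 TPM also had their lowest R7-II values there. From lowest to highest, Slfn1, Slfn4 and the myeloid sum ran through R7-II replicates 2, 1 and 3. For Slfn4 the values of replicates 2 and 1 were close, at 3.51 and 3.53 TPM. Slfn9 at 2.49, 2.87 and 3.22 TPM and Slfn10-ps at 15.29, 15.84 and 17.68 TPM had the same order. In Slfn9 all clones overlapped. The share of all genes with this order was not counted. The B cell and MHC class II sums ran through replicates 2, 3 and 1. The part of other cells in the levels of Slfn1 and Slfn4 was not tested. The purity that the paper gives for its sorted cells was short of complete and was not split by clone. In bulk RNA, more cells of a type and more RNA per cell cannot be told apart. The 8 CD8 T cell markers summed to 3110.87 to 3145.45 TPM in R7-II, 2205.87 to 2228.95 in R7-I and 2394.74 to 2463.74 in R7-III. The 4 CD4 T cell markers summed to at most 8.01 TPM and the 4 NK cell markers to at most 0.17 TPM, with Klra8 and Klra4 listed at 0 in all libraries. The 6 erythroid genes summed to 42.72 to 127.43 TPM in R7-I, 1.95 to 20.41 in R7-II and 12.14 to 36.95 in R7-III.

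Of the long members, Slfn5 and Slfn8 differed more between the R7-II libraries than between clones. Slfn5 was at 5.16, 6.38 and 11.17 TPM in R7-II replicates 1 to 3, at 6.04, 6.91 and 5.52 TPM in R7-I and at 6.6, 6.41 and 6.66 TPM in R7-III. R7-II held both the lowest and the highest library. Its SD on the log2 scale was 0.509 in R7-II, larger than for 97.9% of genes, against 0.140 in R7-I, 0.0250 in R7-III and a median of 0.0869 over all genes in R7-II. The differences between clones were 0.20 (adjusted p = 0.381) and 0.12 (adjusted p = 0.610) for R7-II against R7-I and R7-III, by limma, and both turned negative without R7-II replicate 3 (-0.08 and -0.16) and with quantile normalization (-0.12 and -0.07).

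Slfn8 had a like spread. It was at 11.01, 14.47 and 22.97 TPM in R7-II, at 21.19, 23.66 and 18.5 TPM in R7-I and at 16.42, 18.57 and 18.45 TPM in R7-III. R7-II replicates 1 and 2 lay below all 6 other libraries and replicate 3 within the range of R7-I. With all 3 libraries the differences were -0.42 from R7-I (SE 0.198, adjusted p = 0.0811, limma) and -0.19 from R7-III (adjusted p = 0.410, limma). Without R7-II replicate 3 they were -0.69 (adjusted p = 8.28e-04, limma) and -0.46 (adjusted p = 0.00851, limma), both past 0.01, and without R7-II replicate 1 the second was 0.04. A single library thus decides the call for Slfn8. R7-III and R7-I differed by -0.23 in Slfn8 (adjusted p = 0.470, limma) and by 0.08 in Slfn5 (adjusted p = 0.822, limma).

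Slfn9 did not share this spread. It was at 2.87, 2.49 and 3.22 TPM in R7-II, at 3.04, 2.61 and 2.45 TPM in R7-I and 2.78, 3.18 and 3.21 TPM in R7-III, and all clones overlapped. Its differences were 0.06 from R7-I (adjusted p = 0.630; -0.07 with median-of-ratios scaling) and -0.07 from R7-III (adjusted p = 0.554), by limma, with 95% intervals of -0.18 to 0.30 and -0.31 to 0.16. Slfn8 and Slfn9 transcripts were 89.5% identical along the shorter, and 3.71% of the 100-base windows of Slfn8 and 3.90% of those of Slfn9 occurred in another gene, mostly Slfn10-ps. Summed, Slfn8 and Slfn9 differed by -0.35 between R7-II and R7-I (adjusted p = 0.10, limma). The pseudogene Slfn10-ps was at 15.84, 15.29 and 17.68 TPM in R7-II, at 14.84, 13.91 and 16.2 TPM in R7-I and 13.25, 12.28 and 14.17 TPM in R7-III. R7-II exceeded R7-III by 0.28 in this gene (adjusted p = 0.00875, limma), a call lost in 9 of 20 alternative settings.

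Interferon-stimulated genes are a group to which Schlafen genes are often counted, and they differed among the R7-II libraries in the same way as Slfn5 and Slfn8. Of 25 such genes tested, 24 were lowest in R7-II replicate 1 and highest in replicate 3 among the R7-II libraries, an order shown by 11.1% of all genes tested; the exception was Ifi44, at 0.24 TPM or less. Slfn5, Slfn8 and Slfn3 had this order as well, although Slfn3 ranged only from 14.7 to 15.35 TPM. Ifit3, an antiviral RNA-binding protein, was at 2.9, 15.16 and 26.58 TPM in R7-II replicates 1 to 3 and was picked here for its range, which was the widest of the list. Over the list the highest R7-II library was a median 3.03 times the lowest, against 1.13 times for all genes above 0 in every R7-II library. The median of the list, centred on each gene's mean over 9 libraries, was -0.15, 0.22 and 0.81 on the log2 scale in R7-II replicates 1 to 3. It lay between -0.28 and -0.0040 in the other 6 libraries. The same centred values were -0.31, -0.05 and 0.68 for Slfn5, -0.66, -0.29 and 0.34 for Slfn8 and 0.0033, -0.15 and 0.13 for Slfn9. The ISRE match is present before all 3 of these genes, including Slfn9. The myeloid marker sum was highest in R7-II replicate 3 too, at 96.95 TPM, but lowest in replicate 2, at 29.48 TPM. Its part in the spread of Slfn5 and Slfn8 was not tested.

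**Figure D4:**
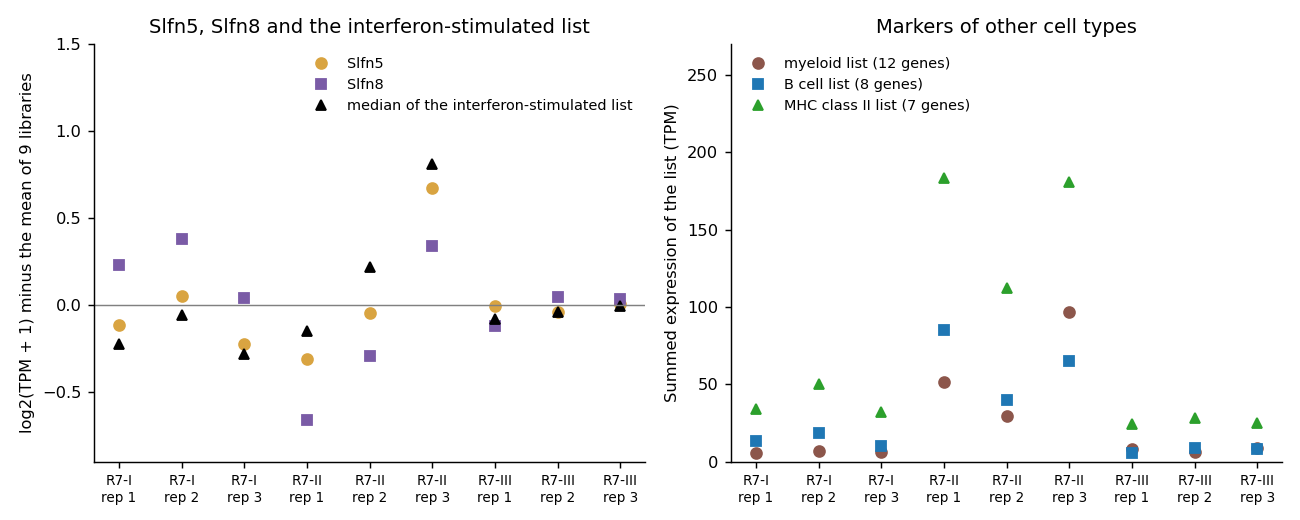
Left, Slfn5, Slfn8 and the median of 25 interferon-stimulated genes in each of the 9 libraries, as log2(TPM + 1) minus the mean over the libraries; right, summed TPM of the myeloid, B cell and MHC class II markers in the same libraries. In R7-II replicates 1 to 3 the interferon list stands at -0.15, 0.22 and 0.81 and Slfn5 at -0.31, -0.05 and 0.68, while the marker sums are lowest in replicate 2.

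Between clones, a smaller share of the interferon list than of all genes was called at the main setting. Against R7-I, 8 of the 25 genes were called higher in R7-II and 1 lower, beside 40.6% and 15.5% of all genes, with a median difference of 0.36. Against R7-III, 5 were higher and 2 lower, beside 35.6% and 18.0% of all genes, with a median of 0.33. These 9 and 7 calls depended on the setting: with 1 library left out they ranged from 5 to 14 and from 2 to 12, highest without R7-II replicate 1 and lowest without replicate 1 or 3 of the other clone, and with quantile normalization they were 4 and 4. By limma, 0 were called between R7-III and R7-I, beside 8.41% of all genes. Bst2 and Ifi35 were among the most abundant genes of the list. Bst2, the tether that holds budding virions at the cell surface, was at 81.81 to 151.69 TPM in R7-II, below 176.01 to 210.09 in R7-I and 196.69 to 222.06 in R7-III. Its differences were -0.67 (adjusted p = 0.00757) and -0.77 (adjusted p = 0.00361, limma); these calls were lost in 10 and 7 of 20 alternative settings. Ifi35 differed by 0.20 (adjusted p = 0.0561, limma) and 0.25 (adjusted p = 0.0223, limma), which did not pass.

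Genes of T cell quiescence, the state to which Slfn2 is linked, were higher in R7-II in the comparisons in which Slfn2 was not. Of 18 genes tested, 15 were higher and 0 lower against R7-I, and 17 higher and 0 lower against R7-III, with median differences of 0.76 in both. Over all genes tested, 40.6% and 35.6% were called higher. The list was chosen with earlier results of these data known. It holds Klf2, S1pr1 and Il7r, named here because the paper had reported them highest in activated R7-II by RNA sequencing. For these genes the paper also saw a similar trend by qRT-PCR in a separate activation experiment. Because of how the list was chosen, its counts are a description and not an independent test. In the same libraries the marker lists were higher as well, with 8 of 8 B cell, 7 of 7 MHC class II and 7 of 8 CD8 T cell markers called in both comparisons, and 9 and 10 of 12 myeloid markers; the part of other cells in the quiescence list was not tested. Tcf7, a factor of naive and memory T cells, was at 411.07 to 517.66 TPM in R7-II, 167.71 to 198.04 in R7-I and 179.64 to 185.40 in R7-III, a rise of 1.41 and 1.38 (adjusted p = 2.88e-07 and 3.26e-07, limma). The homing receptor Ccr7 rose by 0.55 and 0.78 (adjusted p = 3.25e-05 and 2.78e-06, limma), and the factor Foxp1 by 0.31 and 0.25 (adjusted p = 2.25e-05 and 1.07e-04, limma). Slfn1 at 2.13 and 2.02 was above the median of this list, while Slfn2 at -0.21 and -0.14 was below every gene of it. None of the 18 (0) was called by limma in the comparison of R7-III with R7-I, beside 8.41% of all genes.

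The list of enzymes that cleave or methylate tRNA, the substrates Slfn2 protects, moved little. It also holds Rnh1, the gene of a ribonuclease inhibitor and not of such an enzyme. Of 7 tested, 3 were higher and 2 lower against R7-I, beside 40.6% and 15.5% of all genes. Against R7-III, 2 were higher and 0 lower, beside 35.6% and 18.0% of all genes. Ang, the gene of the ribonuclease angiogenin, was listed at 0. The methyltransferase Nsun2 differed by -0.16 from R7-I (adjusted p = 5.31e-04, limma) and the tRNA 3′ end nuclease Elac2 -0.18 (adjusted p = 0.00160, limma). Against R7-III they differed by -0.07 and -0.07 (adjusted p = 0.0420 and 0.133, limma). The ribonuclease gene Rnaset2a rose by 0.66 in both (adjusted p = 3.82e-06 and 3.91e-06, limma). Between R7-III and R7-I, 1 gene was called higher, the inhibitor gene Rnh1 (0.24, adjusted p = 0.00661, limma), named here as the only call. It was also among the 3 genes higher in R7-II against R7-I (0.26, adjusted p = 6.31e-04, limma).

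**Figure D5:**
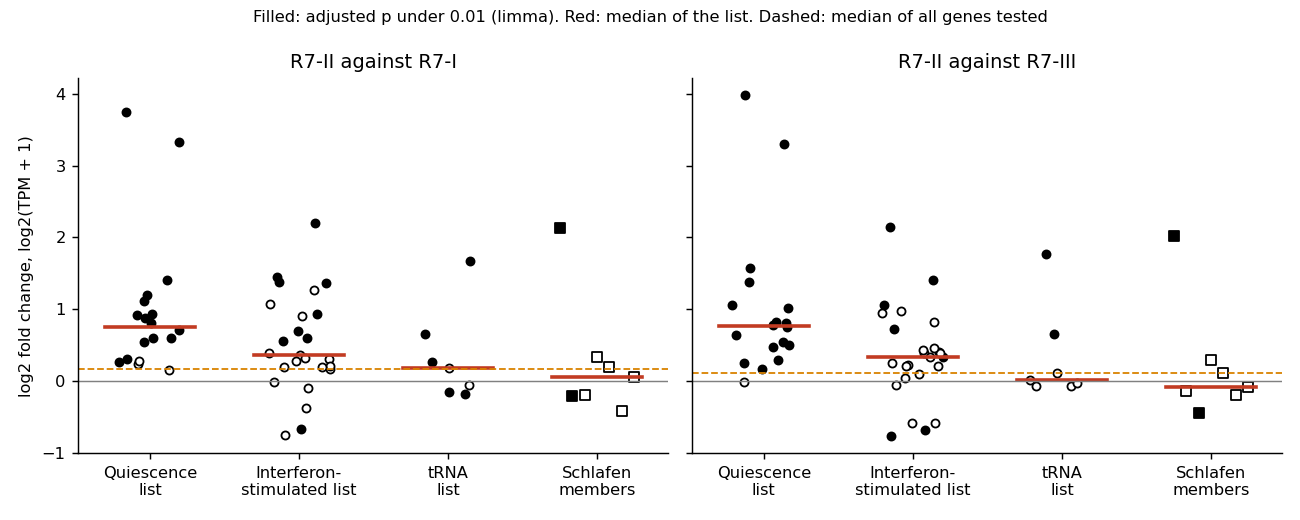
Log2 fold changes on the log2(TPM + 1) scale (vertical axes) of each tested gene of the quiescence, interferon-stimulated and tRNA lists, and of the 7 Schlafen members, for R7-II against R7-I (left) and R7-III (right); filled points passed an adjusted p of 0.01 in limma, red lines are medians and the dashed line is the median of all genes. The quiescence list has medians of 0.76 and 0.76 and the Schlafen members of 0.06 and -0.07, with Slfn1 alone above 2.

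Few of the genes around the cluster were higher in R7-II, as Slfn1 was. Within 500 kb of the cluster, 30 further genes were in the table and 19 were tested. Against R7-I, 1 was higher and 4 lower in R7-II, beside 40.6% and 15.5% of all genes tested, with a median difference of 0.10. Against R7-III, 4 were higher and 5 lower, beside 35.6% and 18.0% of all genes, with a median of 0.05. Those past 2-fold belonged to the chemokine and Wfdc genes beyond the high end of the cluster. The chemokines Ccl9 (-2.14), Ccl3 (-1.81) and Ccl4 (-1.06) fell in R7-II against R7-I (adjusted p = 8.72e-08, 1.51e-08 and 2.40e-08, limma). Ccl3 and Ccl4 overlap in the annotation and the reads keep no strand, so reads of the pair may not be told apart where they overlap. Against R7-III, Ccl9 (-2.31) and Ccl3 (-1.41) fell and Ccl6 (1.23) and Wfdc18 (1.05) rose (adjusted p = 7.11e-08, 6.15e-08, 0.00798 and 0.00348, limma), the last 2 at means of at most 2.25 TPM; their calls were lost in 13 and 6 of 20 alternative settings. Between R7-III and R7-I, Ccl5 was 1.09 higher (adjusted p = 0.00696, limma), a call lost in 12 of 20.

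Genes with the most similar pattern were sought by the root mean square difference of centred log2(TPM + 1) over the 9 libraries, which share 3 clones. An order shared with the member is what these genes were picked for. For Slfn1 these were Abhd14b (0.104), 9930111J21Rik1 (0.123) and Scml4 (0.126). Abhd14b was at 3.12 to 4.39 TPM in R7-II and at most 0.13 elsewhere, and Scml4, a Polycomb-group gene, at 13.8 to 20.47 TPM against 2.89 to 3.73 TPM. No member came near Slfn1: Slfn4 was the closest, at 0.841, at rank 3442 of all genes. For Slfn2 the nearest were Mrpl3 (0.0268), Kdm8 (0.0372) and Cep76 (0.0408), and for Slfn3 they were Fam188a, Itpa and Cdk2ap1, at 0.0494 to 0.050. Cdk2ap1 repeated the order of Slfn3, with 248.39 to 274.5 TPM in R7-II, 302.59 to 333.85 in R7-I and 355.73 to 374.57 in R7-III. For Slfn4 they were Mapk9, Tmem181b-ps and Daxx (0.0450 to 0.0518), and for Slfn9 BC017158, Zfp961 and Prdm15 (0.0631 to 0.0666).

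The nearest genes to Slfn5 were Xaf1 (0.0835), Agrn (0.0904) and Parp12 (0.1003), of which Xaf1 and Parp12 are known interferon-stimulated genes. Xaf1 was at 7.69, 10.36 and 17.49 TPM in R7-II replicates 1 to 3, and Parp12 at 0.89, 1.26 and 2.67 TPM. Both had their highest library where Slfn5 had its 11.17 TPM, which follows from their being picked for likeness to Slfn5. Xaf1 is also one of the interferon-stimulated genes listed above. For Slfn8 the nearest were 2900005J15Rik (0.133), Sdc3 (0.141) and Rpl26 (0.170), all lowest in R7-II replicate 1. Among the members, the closest to Slfn5 was Slfn4 (0.219, rank 189 of all genes) and the closest to Slfn8 was Slfn2 (0.260, rank 326).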

How the data were processed

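RNA of 9 libraries of activated CD8 T cells was sequenced by the authors with a polyA protocol that does not keep the strand, as 100-base single-end reads. Levels were estimated by the authors with RSEM 1.2.11 on mm10 RefSeq genes and deposited as TPM per gene symbol; DESeq2 1.8.1 is also named in the submitters' processing notes, and counts were not used here. TPM keeps no depth, so the number of reads per library is unknown and no counting error is given. From 13738 to 14434 genes were above 0 per library, libraries of a clone correlated at r of 0.992 to 0.997, and no pair of libraries was the same (at least 11215 genes differed).

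Genes with a maximum TPM above 1 were tested on log2(TPM + 1) with limma 3.58.1 in R 4.3.3 (trend, all 9 libraries in 1 fit, Benjamini-Hochberg over 11330 genes, threshold 0.01). Shares, sums and ratios were compared with exact permutation tests in scipy 1.17.1 (Python 3.11.15). The members and gene lists were chosen with earlier results of these data known. Named were the members and other Slfn rows, genes within 500 kb past the threshold and over 2-fold, the 3 most abundant genes of the quiescence, interferon-stimulated and tRNA lists, and the 3 genes most like each member; exceptions are stated, and 1 gene of the interferon-stimulated list is not reported here. Shared 100-base windows and identities came from GENCODE M21 transcripts, and positions and promoters from RefSeq on GRCm38.p6. Alternatives covered pseudocounts of 0.1 and 5, filters, scalings, robust moderation, only the clones compared, the replicate block, summed paralogs, a threshold of 0.05 and each library left out in turn.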

Additional observations from a re-analysis of the deposited data

How the results depend on the processing

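The differences of Slfn1 kept direction and side of the threshold in all 20 alternatives, from 1.96 to 2.23 against R7-I and from 1.86 to 2.11 against R7-III. Of 993 single-gene values under alternatives, 894 kept both, 61 lost and 22 gained the threshold and 16 changed sign; where no value is given, the cause was not tested. With quantile normalization the sign changed for Slfn4 (-0.021), Slfn5 (-0.12), Slfn9 (-0.29) and Slfn10-ps (-0.16) in R7-II against R7-I, for Slfn5 (-0.070) against R7-III, and for Slfn4 (-0.14), Slfn5 (-0.053) and Slfn9 (-0.037) in R7-III against R7-I. With median-of-ratios scaling it changed for Slfn9 (-0.070) and Slfn10-ps (-0.054) against R7-I. With 1 library left out at a time, the sign changed without R7-II replicate 3 for Slfn5 (range -0.081 to 0.41) and Slfn9 (-0.0065 to 0.13) against R7-I and for Slfn5 (-0.16 to 0.33) against R7-III, and without R7-II replicate 1 for Slfn8 against R7-III (-0.46 to 0.036). Slfn4 in R7-III against R7-I was -0.000310 when R7-I replicate 1 was left out and -0.0031 when R7-III replicate 3 was, in a range up to 0.092.

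Members called were 1 to 3 against R7-I and 2 to 3 against R7-III when a library was left out, beside 47.8% to 56.1% and 45.1% to 53.9% of all genes. At a threshold of 0.05 they were 4, 4 and 1 in the 3 comparisons, beside 68.4%, 66.8% and 18.9% of all genes. The share of Slfn2 moved between -12.6 and -9.30 points and the log2 ratio of Slfn1 to Slfn2 between 2.15 and 2.42; without an R7-II library 2 against 6 cannot pass 0.05. The summed TPM of R7-II against the others was -6.34 to 30.8 when a library was left out. The interferon-stimulated list against R7-I had 5 calls with no filter, 4 with quantile normalization, 5 with robust moderation, 14 at 0.05 and 5 to 14 without 1 library. Against R7-III it had 3 with no filter, 4 with quantile normalization, 4 with robust moderation, 4 with only the clones compared, 14 at 0.05 and 2 to 12 without 1 library; between R7-III and R7-I it had 1 with only the clones compared, 1 at 0.05 and 0 to 1 without 1 library. The tRNA list had 4 calls against R7-III with median-of-ratios scaling, and between R7-III and R7-I 0 with no filter, 0 with quantile normalization and 0 to 1 without 1 library. The quiescence list had 1 call between R7-III and R7-I with median-of-ratios scaling and 2 at 0.05.

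The replicate numbers did not pair the libraries: same-numbered libraries of different clones deviated with r between -0.04 and 0.09, none of 9 over 0.1, and 7 of 18 best matches fell on the own number. With the replicate block, 3, 2 and 0 members were called, beside 53.1%, 51.1% and 6.47% of all genes; Slfn4 was added against R7-I (adjusted p = 0.00959, limma).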
